A study of Mus musculus with 9 samples.

Results

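The 6 genes described here are Bdnf and Ntf3, which encode the neurotrophins BDNF and NT-3, their Trk receptors Ntrk2 (TrkB) and Ntrk3 (TrkC), the p75 receptor Ngfr and its partner Sort1 (sortilin). They were chosen by gene symbol from a table of 22192 genes, and all 6 averaged at least 1 TPM (a transcript level scaled to gene length and library total) and were among the 13301 genes tested. The samples were 9 brain libraries from male mice of the outbred KM stock, 3 per group. One group was 18 months old and received 200 mg/kg of GRP-E1F2, a ginseng root polysaccharide fraction, by gavage every 2 days over 4 weeks. A saline group of the same age and a 5-month-old saline group had the same dosing schedule with physiological saline. They are called treated aged, aged saline and young saline mice. The labels call the 3 libraries parallel samples without naming an animal for each, so a p-value here reflects the variation among libraries, which could be technical alone.

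Neurotrophins are secreted as precursors, cleaved to mature dimers, and bind Trk tyrosine kinases, which signal through adaptors to the ERK, PI3K and PLCγ pathways. In the adult forebrain, BDNF is made mainly by excitatory neurons in an activity-dependent way and acts on synapses through TrkB. The p75 receptor binds all mature neurotrophins with lower affinity than the Trk receptors do for their own ligands, and with sortilin it binds the uncleaved precursors. In the adult brain p75 is best known from the cholinergic neurons of the basal forebrain.

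In mm10 coordinates of the RefSeq annotation, Bdnf lies at chr2:109674700-109727043, Ntf3 at chr6:126101412-126166772, Ntrk2 at chr13:58806472-59133970, Ntrk3 at chr7:78179986-78581034, Ngfr at chr11:95568818-95587698 and Sort1 at chr3:108283974-108361519. The deposited value is 1 number per gene, while the GENCODE M21 annotation holds 7 coding transcripts of Ntrk2 with products of 466 to 821 residues and 6 of Ntrk3 with products of 86 to 864 residues. Full-length receptors with a kinase domain and truncated receptors without it, the main form of TrkB in astrocytes, are therefore summed in each value. A pair of promoter windows in RefSeq sequence (GRCm38.p6, the build also called mm10) is shown, because Bdnf is the member known to be switched on through CREB and Ntrk2 is the member that passed the test between treated and saline aged mice. Each is the 250 bases before a transcription start on the plus strand, and the capitals mark a match to the CREB half-site TGACG, here read on the minus strand.
Bdnf, chr2:109692186-109692435: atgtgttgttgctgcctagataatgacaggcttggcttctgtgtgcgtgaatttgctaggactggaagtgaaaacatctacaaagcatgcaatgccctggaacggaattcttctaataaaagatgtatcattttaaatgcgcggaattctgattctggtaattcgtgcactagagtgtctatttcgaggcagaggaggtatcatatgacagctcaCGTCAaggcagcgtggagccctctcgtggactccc
Ntrk2, chr13:58806319-58806568: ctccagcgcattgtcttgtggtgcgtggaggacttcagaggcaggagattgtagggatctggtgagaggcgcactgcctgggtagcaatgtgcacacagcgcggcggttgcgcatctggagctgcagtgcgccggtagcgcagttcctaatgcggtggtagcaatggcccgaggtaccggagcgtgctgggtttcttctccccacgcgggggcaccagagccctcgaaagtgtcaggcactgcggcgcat
The half-site begins at -35 from the start in this Bdnf window, the only 1 of the 7 for Bdnf that holds it. The Ntrk2 window holds none. It ends past the Ntrk2 gene start given above, so it is not wholly upstream of the annotated gene. Windows were found for 4 of the 6 members, 7 for Bdnf, 2 for Ntf3, 1 for Ngfr and 1 for Ntrk2, and 1 of these 11 held TGACG on either strand, against 17.8% of 32851 windows of all genes. The whole CREB site TGACGTCA and the AP-1 site TGACTCA were in none of the 11, against 1.55% and 4.46% of all windows. These are matches of letters within the windows and say nothing of binding.

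The libraries differed in ways that bear on every value below. Marker genes of brain regions stood at different levels in the groups. The summed level of 7 cerebellar neuron markers was 26.4 to 36.5 TPM in treated aged libraries, 1672 to 2071 TPM in aged saline libraries and 2851 to 4158 TPM in young saline libraries. The Purkinje cell gene Pcp2 and the granule cell gene Cbln3 were above 0 in every library, and Cbln3 stood at 0.111 to 0.343 TPM in treated aged libraries. The sum of 7 brainstem and spinal markers was 0.506 to 0.86 TPM in treated aged, 1.70 to 11.7 TPM in aged saline and 36.7 to 50.2 TPM in young saline libraries, with Hoxb5 and Slc6a5 listed at 0 in all 3 treated ones. In addition, every group had a library whose values fell inside the range of its companions: this was so for treated library 3, aged saline library 2 and young saline library 3 at 91.9%, 91.5% and 89.1% of genes with a difference of 1.3-fold or more between the companions, against 18.9% to 30.5% for the other 6 libraries. Of the members' own values, 14 of 18 in these libraries lay between the companions. If such a library is not independent of its companions, SDs and p-values from 3 libraries per group are too small. Why these libraries lay between their companions was not tested. The fits below with 2 libraries per group leave them out. The extraction protocol speaks of retinas, but the photoreceptor gene Sag reached at most 2.93 TPM in any library, while the synaptic gene Snap25 stood at 2448 to 3573 TPM. The genes Ddx3y, Eif2s3y, Kdm5d and Uty, which lie on the Y chromosome, reached at most 0.174 TPM in any library although the mice are labelled male. In bulk tissue, fewer cells of a type and less RNA per cell cannot be told apart.

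Ntrk2 had the highest level of the 6 genes in every library, 75.6 to 92.8 TPM, and Sort1 the second highest, 34.8 to 63.5 TPM. Bdnf (10.2 to 19.0 TPM) and Ntrk3 (9.91 to 14.8 TPM) came next, and their ranges overlapped in treated aged and aged saline libraries, whereas in young saline libraries Ntrk3 lay above Bdnf in all 3. Ngfr (1.24 to 5.63 TPM) and Ntf3 (1.45 to 3.37 TPM) were lowest and overlapped in every group. Ntrk2 stood above 86.4% of the tested genes and Ntf3 above 11.9%. The receptors Ntrk2 and Ntrk3 varied least over the 9 libraries. The coefficient of variation was 6.63% for Ntrk2 and 11.4% for Ntrk3, against a median of 13.9% over all tested genes, and it was 20.9% for Sort1, 22.5% for Bdnf, 25.5% for Ntf3 and 52.1% for Ngfr.

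**Figure D1:**
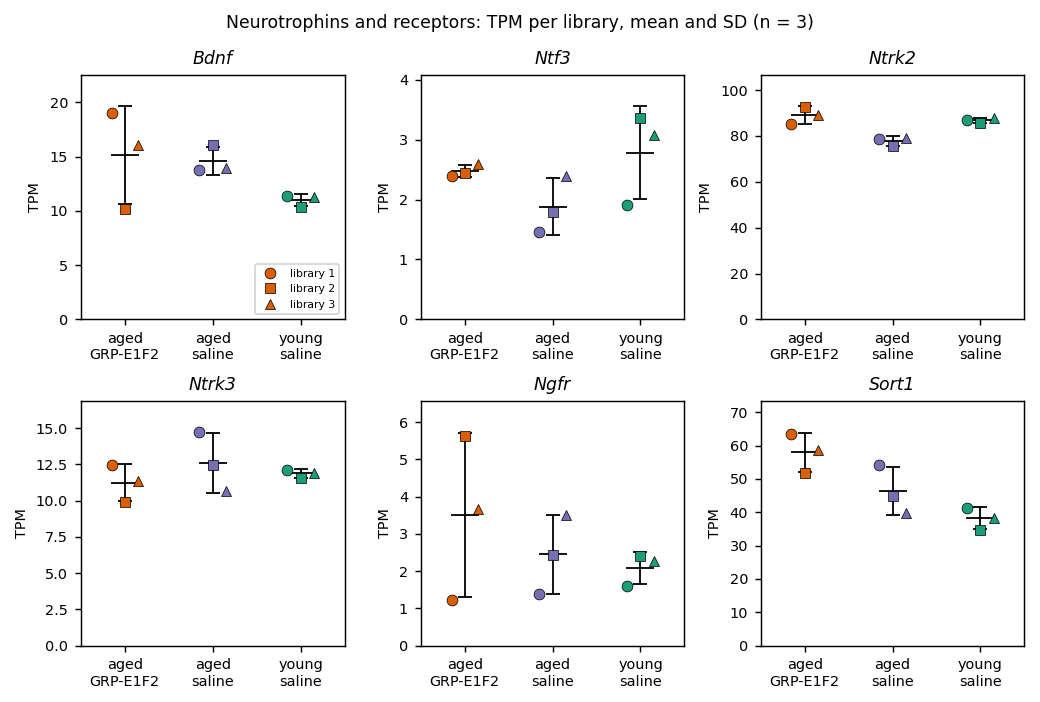
TPM of the 6 genes in each library (points; the shape gives the library number) with the group mean and SD (bars, n = 3), treated aged, aged saline and young saline from left to right. Ntrk2 lies between 75.6 and 92.8 TPM throughout, while Ngfr spans 1.24 to 5.63 TPM within the treated aged group alone.

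Of the 6 genes, 1 passed the test (limma on log2(TPM + 1), adjusted p under 0.05 over all genes tested) between treated aged and aged saline mice, where 20.8% of all genes tested passed it. That gene was Ntrk2, which was higher in the treated mice. None passed between aged saline and young saline mice, where 16.7% of all genes did, although Ntf3 and Ntrk2 had unadjusted limma p-values of 0.0454 and 0.0124. Between treated aged and young saline mice 1 passed, Sort1, against 46.6% of all genes. The TPM ranges of the groups did not overlap for Ntrk2 in the first comparison, for Bdnf and Ntrk2 in the second and for Sort1 in the last, while 36.3%, 41.5% and 61.4% of all tested genes did not overlap in these comparisons. Among all genes tested, 994 (7.47%) were higher and 1777 (13.4%) lower in treated than in saline aged mice. Between aged and young saline mice 729 (5.48%) were higher and 1488 (11.2%) lower in the aged, and between treated aged and young saline mice 2294 (17.2%) were higher and 3910 (29.4%) lower in the treated. After quantile normalisation those splits were 1466 and 1470, 966 and 1102, and 3115 and 2978. With the in-between library of each group left out, no member passed in any comparison. The aged saline libraries enter the first 2 comparisons with opposite sign, the young saline libraries serve as the baseline in both comparisons with aged mice, and so the differences below are given side by side.

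**Figure D2:**
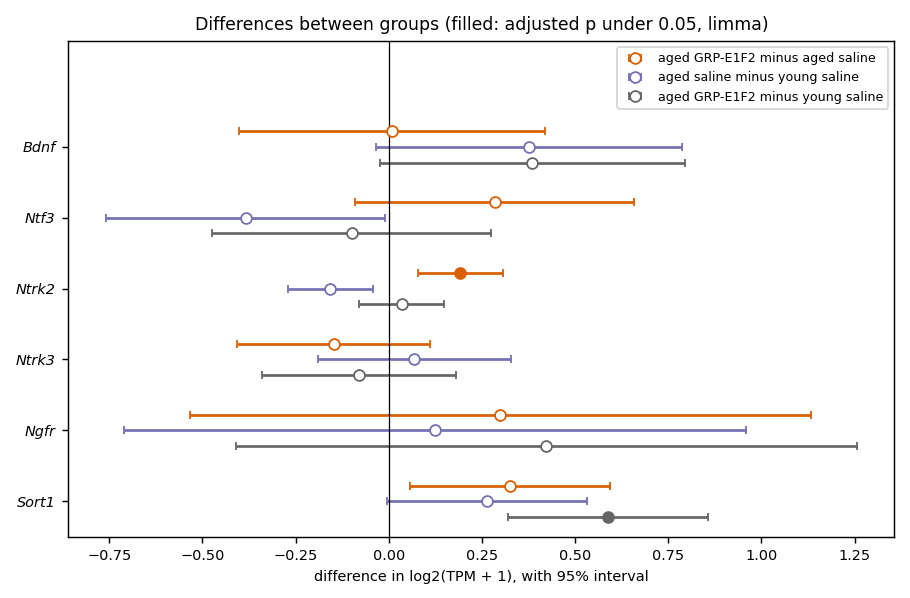
Difference in log2(TPM + 1) between groups for each gene with its 95% interval (limma, 9 libraries), where filled points have an adjusted p under 0.05. The filled points are Ntrk2 in treated against saline aged mice (0.19) and Sort1 in treated aged against young saline mice (0.59).

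Bdnf, the ligand of TrkB, had 19.0, 10.2 and 16.1 TPM in treated aged libraries 1 to 3, 13.7, 16.1 and 14.0 TPM in aged saline libraries, and 11.4, 10.3 and 11.3 TPM in young saline libraries. Both saline groups were tight and did not overlap, with all aged libraries above all young ones. The treated group held both the highest and the lowest of the 9 values. The mean was 15.1 ± 4.51 TPM in treated aged, 14.6 ± 1.28 TPM in aged saline and 11.0 ± 0.592 TPM in young saline libraries (SD, n = 3 each). On the log2(TPM + 1) scale, treated minus saline at 18 months was 0.01 (95% interval -0.40 to 0.42, limma adjusted p = 0.978), so differences within that interval were not resolved. Aged minus young saline was 0.38 (-0.03 to 0.79, adjusted p = 0.177), and the exact permutation test gave 0.1, the smallest p that 3 libraries against 3 allow. Treated library 2 changed the call in both comparisons with young mice: without it the limma adjusted p was 0.0248 for aged minus young saline (a fit over all groups shares the spread) and 0.0015 for treated aged minus young saline, where the difference was 0.63 in place of 0.39 with all libraries (adjusted p = 0.111). The summed level of 9 neocortical excitatory neuron markers, the cells known to make most BDNF, was 17153 to 26854 TPM in treated aged, 14940 to 22016 TPM in aged saline and 4362 to 12473 TPM in young saline libraries, and 4 of the 9 passed as higher in aged than in young saline mice. That sum is almost wholly Nrgn, which averaged 15698 TPM over the 9 libraries, against 515 TPM for the next gene, Slc17a7. The mean log2 level of that list and Bdnf had a Pearson correlation of 0.861 over the 9 libraries, which share their groups. It was -0.830 for endothelial cells and 0.365 for hippocampal neurons. With each group's mean taken off, the neocortical list had 0.797. The choroid plexus, endothelial and olfactory bulb lists then had 0.894, -0.873 and -0.862. The part of these cell types in the Bdnf values was not tested.

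Ntf3 encodes NT-3, the preferred ligand of TrkC. It had 2.39, 2.45 and 2.59 TPM in treated aged libraries, 1.45, 1.79 and 2.40 TPM in aged saline libraries and 1.91, 3.37 and 3.07 TPM in young saline libraries. The treated values lay close together, both saline groups spread more widely, and every pair of groups overlapped. Treated minus saline at 18 months was 0.28 (-0.09 to 0.66, limma adjusted p = 0.258), and aged minus young saline was -0.38 (-0.76 to -0.0098, adjusted p = 0.137). Without young saline library 1 the difference from young mice was -0.56 with an adjusted p of 0.0289. At 1 to 4 TPM, with depth unknown, the counting error of these values could not be given. Ntf5, the neurotrophin NT-4, averaged 0.212 TPM and was below the level for testing.

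Ntrk2, the BDNF receptor, had 85.2, 92.8 and 89.2 TPM in treated aged libraries, 78.6, 75.6 and 79.3 TPM in aged saline libraries and 86.9, 85.8 and 87.8 TPM in young saline libraries. The aged saline libraries were the lowest 3 of the 9, and the treated aged and young saline libraries overlapped. The treated mean of 89.0 ± 3.82 TPM was 1.14 times the aged saline mean of 77.8 ± 1.98 TPM (SD, n = 3 each), a rise of 0.19 ± 0.05 (SE) on the log2 scale with a limma adjusted p of 0.0273. Aged saline against the young saline mean of 86.8 ± 0.963 TPM was -0.16 (95% interval -0.27 to -0.04), which missed the threshold with an adjusted p of 0.0621 and passed it at 0.0484 when no genes were filtered out. Treated aged minus young saline was 0.04 (-0.08 to 0.15, adjusted p = 0.596). The rise with treatment passed the threshold in 14 of 21 alternatives, with differences of 0.16 to 0.22 over all of them. It missed it at 0.117 without aged saline library 2, 0.0662 without treated library 2, 0.103 without treated library 3 and 0.059 without young saline library 3, and at 0.55 with 2 libraries per group. Markers of astrocytes, which carry much of the brain's truncated TrkB, did not follow the same order. Treated aged libraries had a sum of 1004 to 1035 TPM over 9 markers. Aged saline libraries had 1567 to 1757 TPM and young saline libraries 1980 to 2374 TPM. That sum is mostly Aldoc, which averaged 1083 TPM over the 9 libraries, against 161 TPM for the next gene, Slc1a3. Of the 9 markers, 5 passed as lower and 0 as higher in treated than in saline aged mice. Against young saline mice, 8 were lower and 1, Slc1a2, higher in treated aged mice. All 7 cerebellar markers passed as lower in treated than in saline aged mice. The part of these cells in the Ntrk2 values was not tested.

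Ntrk3, the receptor for NT-3, had 12.4, 9.91 and 11.4 TPM in treated aged libraries, 14.8, 12.4 and 10.6 TPM in aged saline libraries and 12.1, 11.6 and 11.9 TPM in young saline libraries. The young libraries sat inside the range of the aged saline ones. Treated minus saline at 18 months was -0.15 (95% interval -0.41 to 0.11, limma adjusted p = 0.395) and aged minus young saline was 0.07 (-0.19 to 0.33, adjusted p = 0.71).

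Ngfr, the p75 receptor, varied more within groups than between them. It had 1.24, 5.63 and 3.67 TPM in treated aged libraries, 1.39, 2.44 and 3.52 TPM in aged saline libraries and 1.59, 2.40 and 2.27 TPM in young saline libraries. Treated library 2 had the highest and treated library 1 the lowest value of the 9, a ratio of 4.56. Treated minus saline at 18 months was 0.30 with an interval from -0.53 to 1.13 (limma adjusted p = 0.604), and aged minus young saline was 0.12 (-0.71 to 0.96, adjusted p = 0.848). Treated aged minus young saline was 0.42 (adjusted p = 0.375) and without treated library 1 it was 0.86 (adjusted p = 0.0287).

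In the treated aged and the aged saline group, the libraries ranked alike in Ngfr and in the summed cholinergic neuron markers. In young saline libraries the order was the reverse: the marker sums were 4.82, 3.72 and 4.59 TPM in libraries 1 to 3, lowest where Ngfr was highest. Slc18a3, the vesicular acetylcholine transporter, had 1.25, 5.38 and 3.48 TPM in treated aged, 1.53, 2.38 and 3.47 TPM in aged saline and 1.80, 2.03 and 1.94 TPM in young saline libraries. Of all genes tested, predicted genes and pseudogenes aside, it was the one most like Ngfr (Pearson r = 0.984 of log2(TPM + 1) over 9 libraries), ahead of the ribosomal protein gene Rps12 (0.967) and of Th, the catecholamine-synthesis enzyme (0.960). Lhx8, a transcription factor of forebrain cholinergic neurons, had 0.788, 10.7 and 5.60 TPM in treated aged libraries. The summed level of the 4 cholinergic markers was 3.69 to 24.7 TPM in treated aged, 4.96 to 11.5 TPM in aged saline and 3.72 to 4.82 TPM in young saline libraries, and Lhx8 was at 0 in young saline library 2. The mean log2 level of the list correlated with Ngfr at r = 0.895, and at 0.932 when each group's mean was taken off. Other marker lists came as close with group means taken off. The value was -0.954 for the 5 pan-neuronal markers and -0.886 for neocortical neurons. It was 0.826 for the olfactory bulb, 0.813 for endothelial cells and 0.811 for the pituitary. Treated library 2 also had the most RNA of the pituitary hormone genes Gh (263 TPM, against 0 in treated library 1) and Prl (554 TPM, against 0.36 TPM). The 9 points share groups and the differences in regional markers given above, so these correlations are descriptions. The part of tissue make-up in the Ngfr values was not tested.

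**Figure D3:**
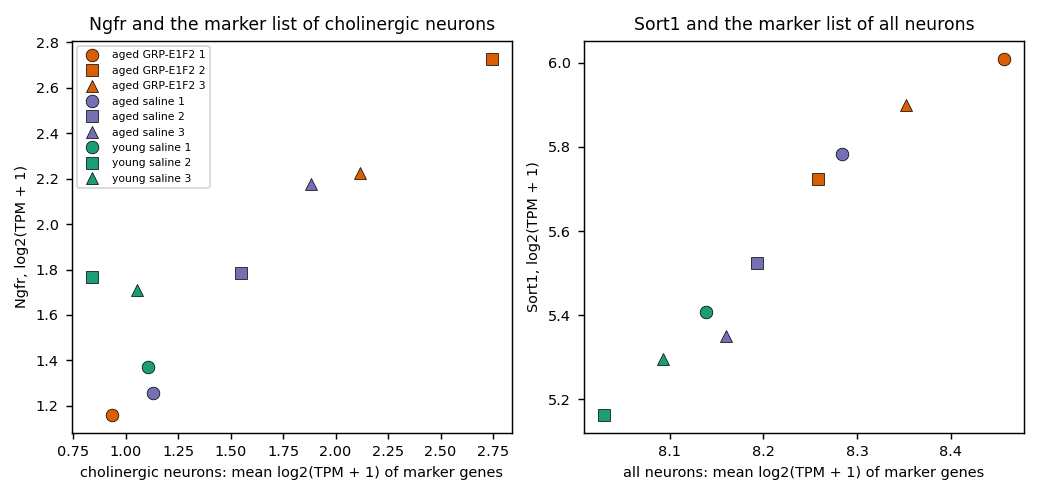
Left, log2(TPM + 1) of Ngfr against the mean log2(TPM + 1) of the cholinergic markers Chat, Slc5a7, Slc18a3 and Lhx8; right, Sort1 against the mean of the neuronal markers Rbfox3, Snap25, Syt1, Map2 and Tubb3. Each point is a library, coloured by group, and the correlations over the 9 libraries are 0.895 and 0.981.

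Sort1, which encodes sortilin, a sorting receptor that binds pro-neurotrophins with p75 and also carries BDNF to secretory vesicles, had 63.5, 51.8 and 58.7 TPM in treated aged libraries, 54.0, 45.0 and 39.8 TPM in aged saline libraries and 41.4, 34.8 and 38.3 TPM in young saline libraries. All treated libraries lay above all young ones, while the aged saline group overlapped both. The treated mean of 58.0 ± 5.86 TPM was 1.52 times the young saline mean of 38.2 ± 3.30 TPM (SD, n = 3 each), a rise of 0.59 ± 0.12 (SE) on the log2 scale with a limma adjusted p of 0.00344. The remaining steps missed the threshold: treated minus saline at 18 months was 0.33 (95% interval 0.06 to 0.59, adjusted p = 0.0836) and aged minus young saline was 0.26 (-0.0051 to 0.53, adjusted p = 0.152). Without aged saline library 1 the treatment difference was 0.44 (adjusted p = 0.0234). The rise over young mice passed in 20 of 21 alternatives, the exception being 2 libraries per group, where it was 0.58 with an adjusted p of 0.0863. Sort1 followed some neuronal genes closely and ran against others. Its nearest genes were Gria2, an AMPA receptor subunit (r = 0.997), the transcription factor gene Klf10 (0.997) and Rapgef5, an exchange factor for Rap (0.996), and its correlation with the mean log2 level of 5 pan-neuronal markers was 0.981. Of those 5 markers, 3 were higher and 1 lower in treated aged than in young saline mice, and their summed level was 3284 to 4145 TPM in treated aged, 3637 to 4359 TPM in aged saline and 3796 to 3896 TPM in young saline libraries. With marker lists for neurons of single regions the correlation of Sort1 went both ways. It was 0.913 for neocortical and 0.647 for striatal neurons. For hippocampal, cerebellar, thalamic, and brainstem and spinal neurons it was -0.323, -0.836, -0.838 and -0.913. Lists of other cells had values of similar size. Mature oligodendrocytes had -0.881, astrocytes a lower value still, endothelial cells -0.878 and meningeal and perivascular fibroblasts -0.839. Oligodendrocyte precursors had 0.801 and microglia 0.739. With each group's mean taken off, these lists had -0.528 (astrocytes) to 0.371 (oligodendrocyte precursors), against 0.922 for the pan-neuronal markers. The part of neuronal, other cell and regional content in the Sort1 values was not tested.

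Nearest genes were also listed for the other members. Bdnf was most like Fxyd7, a regulator of the sodium pump (r = 0.971 over 9 libraries), Nprl2 (0.970) and Cited4 (0.963). Ntf3 was most like Smarcb1, a chromatin remodelling subunit (0.973), Pcyox1l (0.928) and Arid5a (0.922). Ntrk2 was most like Ahi1 (0.975), Lims2 (0.972) and Ppa1, a pyrophosphatase (0.966), and Ntrk3 most like Tial1, an RNA-binding protein gene (0.972), Glo1 (0.963) and Usp25 (0.954). Each was picked as the highest of 13301 genes over 9 points.

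Of 12 relatives of sortilin and partners of p75, 2 were higher and 0 lower in treated than in saline aged mice, and 5 were higher and 1 lower in treated aged than in young saline mice. Between aged and young saline mice 0 passed in limma, and 3 had an unadjusted p under 0.05. Over all genes tested, 20.8%, 46.6% and 16.7% passed in these comparisons. The 2 calls with treatment were 0 without aged saline library 2 or treated library 3 and 1 without young saline library 3. The 5 higher in treated aged than in young saline mice were 3 without young saline library 2 or 3 or treated library 3, and 1 with 2 libraries per group. The 0 between the saline groups was 3 higher without young saline library 1, 1 higher without treated library 1 or 2, 1 lower without aged saline library 3 and 2 higher with the replicate number as a block. The median differences were 0.17, 0.18 and 0.06 in these comparisons, against -0.02, -0.07 and -0.05 over all genes tested. Sorcs2, a receptor that also binds pro-BDNF with p75, had 9.84, 12.2 and 11.2 TPM in treated aged libraries, 7.48, 7.76 and 8.10 TPM in aged saline libraries and 7.10, 4.57 and 5.68 TPM in young saline libraries. The treated libraries lay above all others (0.46 ± 0.13 over aged saline, limma adjusted p = 0.0378; 0.84 ± 0.13 over young saline, adjusted p = 0.000875). Maged1, which binds the p75 intracellular domain, averaged 237 ± 2.30 TPM in treated aged and 198 ± 16.4 TPM in aged saline libraries (adjusted p = 0.0191). Sorl1, another sorting receptor of the family, went the other way, with 24.9 ± 5.66 TPM in treated aged and 36.7 ± 2.63 TPM in young saline libraries (adjusted p = 0.0124). The difference of Sorcs2 from aged saline lost its call, at adjusted p-values of 0.0642 to 0.117, without any 1 of the aged saline libraries, treated library 2 or 3 or young saline library 3, and that of Maged1, at 0.0767 and 0.0795, without treated library 3 or aged saline library 2. A fit of 2 libraries per group gave 0.425 for Sorcs2 and 0.432 for Maged1.

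The listed genes of pro-neurotrophin processing and release, which include protease inhibitors, changed in both directions. Of 14 listed genes 10 were tested: 2 were higher and 3 lower in treated than in saline aged mice, 1 higher and 3 lower in aged than in young saline mice, and 3 higher and 5 lower in treated aged than in young saline mice. The shares of all genes tested that passed were 20.8%, 16.7% and 46.6% in that order. The 4 calls between the saline groups were 1 without young saline library 3 or aged saline library 2 and 2 without young saline library 2 or treated library 3. The 3 lower with treatment were Plat, Pcsk6 and Cadps2, while 1 of the 2 higher was the protease inhibitor Serpini1. Both genes higher with treatment lost their call without treated library 1 or 3 or aged saline library 2 or 3. Plat, the tissue plasminogen activator that starts extracellular cleavage of pro-BDNF, had 13.0, 13.4 and 13.1 TPM in treated aged libraries, 16.1, 17.0 and 18.5 TPM in aged saline libraries and 23.8, 24.7 and 23.5 TPM in young saline libraries. Its 3 groups did not overlap, and it differed by -0.36 ± 0.06 (SE) on the log2 scale between treated and saline aged mice (limma adjusted p = 0.005) and by -0.46 ± 0.06 between aged and young saline mice (adjusted p = 0.00474). Serpini1, the neuronal inhibitor of that protease, averaged 107 ± 14.1 TPM in treated aged, 76.7 ± 11.1 TPM in aged saline and 62.3 ± 1.66 TPM in young saline libraries, higher with treatment by 0.48 (adjusted p = 0.0207, and 0.0523 to 0.0769 without treated library 1 or 3 or aged saline library 2 or 3). Among the proprotein convertases, Pcsk6 was lower with treatment (4.14 ± 0.594 TPM in treated against 9.08 ± 0.954 TPM in saline aged mice, adjusted p = 0.00104). Cadps2, a release factor for BDNF vesicles that is abundant in cerebellar granule cells, had 14.9 ± 2.40 TPM in treated aged and 26.1 ± 4.10 TPM in aged saline libraries (adjusted p = 0.00589). Of these treatment differences none passed with 2 libraries per group (adjusted p = 0.0877 to 0.338). The cerebellar marker sums given above fall in the same group order as Plat, Pcsk6 and Cadps2, and their part was not tested.

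Another list held 16 genes for adaptors and for signalling proteins that act with them below Trk receptors. Of these, 0 passed in limma between treated and saline aged mice, where 3 had an unadjusted p under 0.05. Between aged and young saline mice 3 were lower and 0 higher in the aged. In treated aged mice 6 were lower and 1 higher than in young saline mice. Among all genes tested, 20.8%, 16.7% and 46.6% passed in that order. Shc4, a Shc family adaptor, averaged 1.75 ± 0.243 TPM in treated aged, 2.41 ± 0.0683 TPM in aged saline and 4.38 ± 0.873 TPM in young saline libraries, and was lower in aged than in young saline mice (limma adjusted p = 0.0124). Gab1, a docking protein for PI3K, averaged 4.76 ± 0.152 TPM, 5.21 ± 0.225 TPM and 7.13 ± 0.912 TPM in the same order of groups (adjusted p = 0.0242 for aged against young saline). Both age calls depended on single libraries: Shc4 had 0.0539 and 0.0602 without young saline library 3 or aged saline library 2, and Gab1 0.0582 to 0.0941 without young saline library 2 or 3 or aged saline library 1 or 2. In the fit of 2 libraries per group they had 0.384 and 0.443. The count of 3 genes lower with age was 0 without young saline library 3 or aged saline library 2 and 1 without young saline library 2. The 7 calls between treated aged and young saline mice were 4 without young saline library 3. The 0 with treatment was 1 higher without treated library 1 or 2. Mature oligodendrocyte markers had the same group order, with sums of 5521 to 5711 TPM in treated aged, 6124 to 7406 TPM in aged saline and 9060 to 9642 TPM in young saline libraries, and of 9 genes 4 were lower in treated than in saline aged mice and 8 in aged than in young saline mice. The cerebellar and brainstem marker sums given above have that order too, and the part of these cells in the values of this list was not tested.

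Among 23 kinases and CREB partners downstream of Trk, 3 were higher and 2 lower in treated than in saline aged mice, 1 higher and 2 lower in aged than in young saline mice, and 6 higher and 4 lower in treated aged than in young saline mice. In the same order, 20.8%, 16.7% and 46.6% of all genes tested passed. The 3 calls between the saline groups were 1 without young saline library 2 or 3 or aged saline library 1 or 2, and 5 without young saline library 1. Map2k1, the ERK kinase MEK1, had 227, 282 and 260 TPM in treated aged libraries, 180, 164 and 166 TPM in aged saline libraries and 154, 128 and 141 TPM in young saline libraries. It was higher with treatment by 0.59 ± 0.09 (limma adjusted p = 0.0029). Rps6ka1, the ERK-activated kinase RSK1, had 5.48, 5.98 and 5.20 TPM in treated aged libraries, 24.5, 26.0 and 28.3 TPM in aged saline libraries and 31.1, 42.1 and 37.2 TPM in young saline libraries. Its difference of -2.06 ± 0.11 between treated and saline aged mice (adjusted p = 5.35e-06) passed in all 21 alternatives. Camk4, a calcium-dependent CREB kinase that is abundant in cerebellar granule cells, averaged 24.4 ± 0.796 TPM in treated aged, 37.0 ± 1.50 TPM in aged saline and 48.0 ± 1.55 TPM in young saline libraries (-0.58 with treatment, adjusted p = 0.000176). With 2 libraries per group the adjusted p was 0.165 for Map2k1, 0.00346 for Rps6ka1 and 0.0507 for Camk4. Both kinases that were lower follow the group order of the cerebellar markers, whose part was not tested.

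Of 9 tested transcription factors that act on the Bdnf promoters, 0 passed in limma between treated and saline aged mice, where 1 had an unadjusted p under 0.05, 2 were higher and 0 lower in aged than in young saline mice, and 4 were higher and 1 lower in treated aged than in young saline mice. For all genes tested the shares were 20.8%, 16.7% and 46.6% in that order. The 2 between the saline groups were 0 without young saline library 2 or 3 or aged saline library 1 or 2, 1 without young saline library 1 or treated library 3, and 3 higher and 1 lower without aged saline library 3. The 0 with treatment was 2 higher without treated library 2 and 1 higher with the replicate number as a block. Mef2c, an activity-regulated factor of cortical neurons, had 74.0, 45.7 and 61.1 TPM in treated aged libraries, 54.1, 45.4 and 36.3 TPM in aged saline libraries and 26.3, 15.1 and 21.1 TPM in young saline libraries. It was 1.10 ± 0.23 higher on the log2 scale in aged than in young saline mice (limma adjusted p = 0.0171), but not past the threshold without young saline library 2 or 3 or aged saline library 1 or 2 (adjusted p = 0.0511 to 0.0716), nor with 2 libraries per group (0.384). Npas4, an early factor induced by calcium influx, averaged 4.91 ± 1.60 TPM in treated aged, 3.85 ± 0.65 TPM in aged saline and 2.15 ± 0.169 TPM in young saline libraries (adjusted p = 0.0496 between the saline groups, and 0.0705 to 0.147 without any 1 of the young saline libraries, aged saline library 1 or 2 or treated library 3).

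Many genes induced by neuronal activity and by BDNF were higher in aged than in young mice, and Bdnf itself did not pass in any comparison. Of 13 genes, 8 were higher and 0 lower in aged than in young saline mice, 3 were higher and 0 lower in treated than in saline aged mice, and 12 were higher and 0 lower in treated aged than in young saline mice, with median differences of 0.81, 0.42 and 1.28. Passing shares over all genes tested were 16.7%, 20.8% and 46.6% in that order. Egr1, an early transcription factor, had 243, 153 and 197 TPM in treated aged libraries, 141, 115 and 99.8 TPM in aged saline libraries and 69.9, 45.4 and 60.6 TPM in young saline libraries, so that the 3 groups did not overlap. Treated library 2, the lowest of the 9 libraries in Bdnf, was also the lowest treated library in Egr1. Fosb, another early factor, averaged 15.1 ± 3.94 TPM in treated aged and 7.42 ± 1.09 TPM in aged saline libraries (0.92 ± 0.17, limma adjusted p = 0.00685), and Nr4a1, a nuclear receptor induced by calcium, 93.0 ± 8.34 TPM and 69.6 ± 11.4 TPM (0.42 ± 0.13, adjusted p = 0.045). The Nr4a1 difference did not pass without treated library 1 or 3, aged saline library 2 or 3 or young saline library 3 (0.0723 to 0.139). Egr1 lost its call with treatment without any 1 of the same libraries (limma adjusted p = 0.0569 to 0.106). Its call with age was lost without young saline library 2 or 3 or aged saline library 2 (0.0531 to 0.0629). The count of 8 was 2 without young saline library 2, without young saline library 3 or without aged saline library 2, and 4 without aged saline library 1. The count of 3 ranged from 1 to 6 as single libraries were left out: it was 1 without treated library 1, treated library 3, aged saline library 2, aged saline library 3 or young saline library 3, 5 without treated library 2 and 6 without young saline library 2. With 2 libraries per group the counts were 0, 0 and 5 in the order of comparisons just given. Of the neocortical markers, 4 of 9 were higher and 0 lower in aged than in young saline mice. Of 8 striatal markers 0 passed in limma between the saline groups, though their median difference was 1.65. Their sums of 888 to 1268 TPM in aged saline and 240 to 893 TPM in young saline libraries overlapped. Their mean log2 levels, 5.26 to 5.68 and 2.37 to 5.11 in the same order, did not. Between treated aged and young saline mice 4 of the 8 passed as higher and 0 as lower. The part of these cells was not tested. Promoter windows were found for 8 of the 13 genes of this list. Of these 8, 6 had a TGACG half-site in a window, against 19.8% of 27025 genes. The list was chosen as genes induced by activity, so this share describes the list and is no result of these data.

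**Figure D4:**
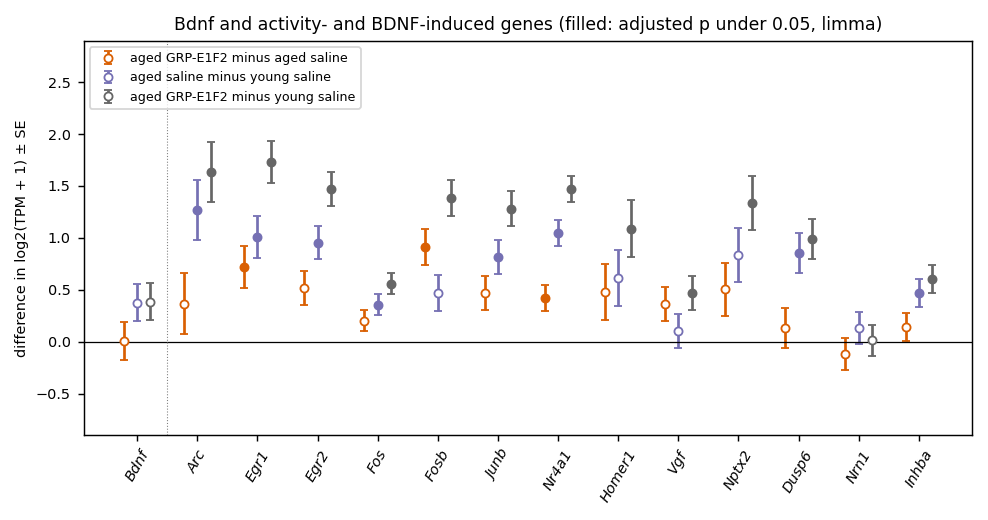
Difference in log2(TPM + 1) ± SE (limma) for Bdnf and 13 genes induced by neuronal activity and BDNF in each comparison, with filled points for an adjusted p under 0.05. Bdnf stays at 0.01 to 0.39, while the list has medians of 0.42, 0.81 and 1.28 for treated against saline aged, aged against young saline and treated aged against young saline mice.

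The ratio of receptor to ligand transcripts was taken within each library. Ntrk2 over Bdnf was 4.47, 9.10 and 5.54 in treated aged libraries, 5.72, 4.70 and 5.67 in aged saline libraries and 7.65, 8.32 and 7.76 in young saline libraries. The aged saline ratios lay below the young ones without overlap, and treated library 2, low in Bdnf, had the highest ratio of all. Ntrk3 over Ntf3 was 4.55 ± 0.593 in treated aged, 7.19 ± 2.87 in aged saline and 4.56 ± 1.58 in young saline libraries (SD, n = 3 each), with overlap between the groups.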

How the data were processed

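RNA sequencing gave 1 deposited table of 9 libraries, 3 in each of 3 groups. It holds TPM values made by the authors, 1 per gene and library. The tools named in the submitters' processing notes are GATK, HISAT2, SAMtools 0.1.18 and Picard, and the build is mm10. For the counting tool, its annotation and its use of strand, the sources used here give no name. Library sums lay between 999667 and 999929 TPM, which keeps no record of depth, so intervals for counting error could not be made and depth is unknown. On the scale of log2(TPM + 1), 13301 genes averaging 1 TPM or more entered a linear model (limma 3.58.1, R 4.3.3, eBayes with trend) over all 9 libraries. Two-sided p-values were corrected with the Benjamini-Hochberg procedure across the genes tested, and an adjusted p under 0.05 passed. The fit was tested on simulated data in which every library was drawn independently. That test does not cover the in-between libraries, so it gives no error rate for these data. Single genes were also compared by exact permutation tests of 3 against 3 libraries. The named genes were the members, the 3 genes most correlated with each, up to 4 passing genes per pathway list and comparison with the smallest p, and up to 3 abundant genes per marker list. The members and lists were chosen with earlier results of these data known. Ntf5, Slc5a7, Rbfox3, Map2 and the Y-linked genes were named after their values were seen. Some genes of the lists are not reported here. Alternatives changed the pseudocount (0.1 or 5), the filter (none, or a mean of 5 TPM), the scaling, the model and the libraries included.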

Additional observations from a re-analysis of the deposited data

How the results depend on the processing

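Over all alternatives, the difference of Ntrk2 between treated and saline aged mice kept its direction, as did that of Sort1 between treated aged and young saline mice. When single libraries were left out, 1348 to 3067 genes passed between treated and saline aged mice, 341 to 2644 between aged and young saline mice and 4743 to 6635 between treated aged and young saline mice, and 0 to 2, 0 to 1 and 1 to 2 members. With 2 libraries per group 249, 3 and 1714 genes and 0 members passed. Fitting only the groups compared left 0 members with treatment and 1 with age (Bdnf, adjusted p = 0.028). Without a filter 1 member passed with age, and after quantile normalisation 2 passed between treated aged and young saline mice (Bdnf, adjusted p = 0.0466). Directions turned only for differences that did not pass: the same omissions gave ranges of -0.17 to 0.25 for Bdnf and -0.047 to 0.74 for Ngfr with treatment, -0.043 to 0.18 for Ntrk3 and -0.095 to 0.36 for Ngfr with age, and -0.28 to 0.015 for Ntf3 and -0.15 to 0.00072 for Ntrk3 between treated aged and young saline mice. Quantile normalisation gave 0.027 for Ntf3 and 0.026 for Ntrk3 in that comparison. The causes were not tested. TPM holds no depth, so the low levels of Ntf3 and Ngfr have an unknown counting error.

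Libraries with the same replicate number did not deviate together: the correlations of their deviations were 0.0511, 0.0216 and 0.0235 with treatment, 0.126, -0.0254 and -0.00109 with age and -0.0549, -0.0392 and 0.0258 between treated aged and young saline mice. The numbers were therefore not used as pairs. With the replicate number as a block, 2589, 2055 and 5944 genes passed in these comparisons, Ntrk2 with treatment had an adjusted p of 0.0519 and Sort1 with treatment one of 0.0337.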

Other observations

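Other neurotrophic systems changed in both directions. Of 13 tested genes for other neurotrophic factors and their receptors, 1 was higher and 3 lower in treated than in saline aged mice, 1 higher and 3 lower in aged than in young saline mice, and 3 higher and 5 lower in treated aged than in young saline mice. In these comparisons 20.8%, 16.7% and 46.6% of all genes tested passed. The 4 calls with age were 1 without young saline library 2 or 3 or aged saline library 2, and 2 without young saline library 1 or aged saline library 1. Ret, the kinase receptor of the GDNF family, had 1.75, 1.95 and 2.06 TPM in treated aged libraries, 4.00, 5.48 and 7.29 TPM in aged saline libraries and 11.0, 13.7 and 12.7 TPM in young saline libraries, and was lower with treatment (a log2 difference of -1.14 ± 0.17, limma adjusted p = 0.00175) and with age (-1.05 ± 0.17, adjusted p = 0.00731). The sum of 7 brainstem and spinal markers had the same group order (0.506 to 0.86 TPM in treated aged, 1.70, 7.14 and 11.7 TPM in aged saline and 36.7 to 50.2 TPM in young saline libraries), and its libraries ranked like Ret in both saline groups. The part of these cells in the Ret values was not tested. The Ret co-receptor gene Gfra1 was higher with treatment and averaged 7.88 ± 0.67 TPM in treated aged and 5.70 ± 0.254 TPM in aged saline libraries (adjusted p = 0.0109, and 0.0515 without treated library 3). Vegfa, the angiogenic factor, averaged 49.8 ± 4.62 TPM in treated aged and 77.9 ± 7.75 TPM in aged saline libraries (adjusted p = 0.00161). Mdk, midkine, averaged 55.9 ± 14.1 TPM and 103 ± 20.0 TPM in the same groups (adjusted p = 0.00935). With 2 libraries per group none of the differences between treated and saline aged mice passed (adjusted p = 0.0903 to 0.274).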
